A study of Selaginella moellendorffii with 8 samples.

Results

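Whole microphylls and rhizophores of the lycophyte Selaginella moellendorffii were compared by RNA sequencing, with 2 libraries of each organ. These 4 libraries were chosen by their labels out of 8 in the series, the others being 2 of the shoot tip and 2 of the root. Microphylls were 10 to 14 days old. Rhizophores were taken at 4 to 7 days and a length of 2.5 to 3.5 cm, and had no cap, hairs, green colour or microphylls. The other libraries came from the tip of shoots 10 to 20 days past branching and from roots with cap and hairs, at 10 to 20 days and lengths of 5 to 10 cm. All plants were untreated and grew from stem cuttings, with 80% humidity and days of 16 h light and 8 h dark, and each library pooled 40 excised pieces. The labels name the libraries of an organ biological repeats and say no more of their origin, so the p-values below measure a spread between samples that may be technical. Leaf and rhizophore differed in age as well as in kind, and these cannot be told apart.

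The microphyll is the leaf of lycophytes, a small blade with a single unbranched vein, and is the main photosynthetic organ of the plant. The rhizophore is a leafless axis that grows down from an angle meristem at a branch point of the stem and bears roots at its tip once it meets the soil. It has been described as root-like, shoot-like or an organ of its own. Set against the microphyll, it contrasts a green lateral organ with a colourless axis of the same plant. Because whole tissue was sequenced, fewer cells of a type and less RNA per cell cannot be told apart in any of the differences below.

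Gene models carry numbers in place of names. None of the 25004 model names (0 matched) occurred in the RefSeq gene table, so the files do not pair these models with gene names, functions or positions, and the organ labels could not be checked against marker genes. Levels are given as CPM, counts per 1000000 scaled by the TMM method (trimmed mean of M values), which allows for a few models taking much of a library. They are not corrected for transcript length and are compared between libraries, not between models. The leaf libraries held 2826533 and 16058139 counts and the rhizophore libraries 10063538 and 11886486, for replicates 1 and 2. The table lists no count from 1 to 4, so up to 4 reads may lie behind a listed 0. A count of 5 corresponds to 2.15 and 0.438 CPM in leaf replicates 1 and 2 and to 0.402 and 0.324 CPM in the rhizophore libraries.

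The library labelled rhizophore replicate 2 stood apart from the other rhizophore library. In the authors' deposited table of organ averages, the Rhizophore value was matched by rhizophore replicate 1 with a weight of 99.9% and by the library labelled rhizophore replicate 2 with a weight of 0.0850%. The Root value was matched by the root libraries with weights of 25.1% each and by the library labelled rhizophore replicate 2 with 49.8%, so the deposited Root averages given below hold that library. The label is kept here, and each result is also given against each rhizophore library alone. The root mean square difference in log2 CPM was 1.75 between the rhizophore libraries and 1.22 between the leaf libraries. From the library labelled rhizophore replicate 2 it was 2.42 to root replicate 1 and 2.73 to root replicate 2, so rhizophore replicate 1 lay nearer. Leaf and rhizophore libraries lay 1.76 to 2.54 apart, with a mean of 1.88 from leaf to rhizophore replicate 1 and of 2.46 to the library labelled rhizophore replicate 2. When models under 10 CPM were left out, the leaf libraries lay 0.612 apart and the rhizophore libraries still 1.75. The library labelled rhizophore replicate 2 then lay 2.12 and 2.05 from root replicates 1 and 2. Which organ that library came from was not tested.

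Leaf and rhizophore RNA differed in 4724 of 23662 models tested, 20.0% of them, at an adjusted p under 0.05 in edgeR's quasi-likelihood test. The spread in that test was estimated over all 4 organs, and with the 4 leaf and rhizophore libraries alone 137 models were called. Of the 4724, 2514 (10.6% of those tested) were higher in leaf and 2210 (9.34%) were lower. The models higher in leaf held 58.0% and 58.3% of all counts in the leaf libraries and 6.56% and 5.63% in the rhizophore libraries. Those lower in leaf held 26.3% and 29.0% of rhizophore counts and 3.59% and 3.61% of leaf counts. Most of the RNA counted in a microphyll thus came from models that together held a small share of rhizophore counts. These shares follow from how the models were called and are given as a description. By median the models higher in leaf were not scarce in the rhizophore libraries, at 6.67 and 4.28 CPM against 5.95 and 5.38 CPM over all models tested.

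**Figure D1:**
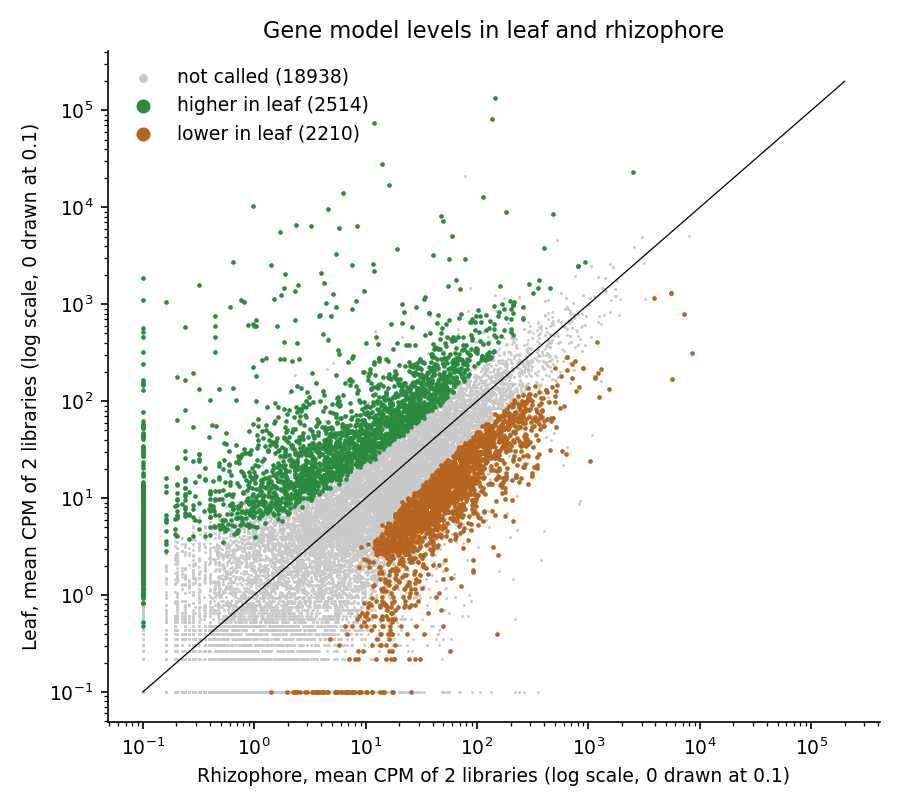
Mean level of each tested model in rhizophore (x axis, CPM) and leaf (y axis, CPM), both on log scales, each the mean of 2 libraries, with 0 drawn at 0.1. Green points are the 2514 models called higher in leaf, brown points the 2210 called lower, grey points those not called, and the line marks equal levels.

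The models higher in leaf had the larger ratios. The median log2 ratio of leaf to rhizophore was 2.49 for models called higher in leaf and -2.12 for those called lower, with an organ listed at 0 set to 5 counts per library. The fitted log2 fold changes, which for a model at 0 depend on a prior count, had medians of 2.57 and -2.13, against 0 over all models tested. Ratios of at least 8-fold were seen in 881 models (35.0%) called higher in leaf and 385 (17.4%) called lower. At least 64-fold was seen in 132 models called higher in leaf and in 1 called lower. The limits were unequal, because the mean of 5 counts per library is 1.30 CPM in leaf and 0.363 CPM in rhizophore, so a 64-fold ratio could be seen above 83.0 CPM in rhizophore and above 23.2 CPM in leaf. Among models at 100 CPM or more in the higher organ, which clears both limits, 92 of 622 (14.8%) were at least 64-fold higher in leaf and 1 of 485 (0.206%) at least 64-fold lower.

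Against each rhizophore library alone the larger share of such ratios was again on the leaf side, by a smaller margin. The difference between the shares was not tested. Among called models at 100 CPM or more, 10.1% of 895 were at least 64-fold higher in leaf against rhizophore replicate 1, and 0.498% of 803 at least 64-fold lower. Against the library labelled rhizophore replicate 2 these shares were 15.6% of 915 and 3.35% of 1165.

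Few called models were listed at 0 in the whole of the lower organ. Of the 2514 called higher in leaf, 282 (11.2%) had 0 in both rhizophore libraries, against 3926 (16.6%) of all tested. Of the 2210 called lower, 55 (2.49%) had 0 in both leaf libraries, against 3892 (16.4%) of all tested. Among all tested, 2642 (11.2%) were at 0 in all 4 libraries. These had no difference to call and are part of both shares over all tested, so those shares are no like background for called models. With these models left out, the share over all tested falls below that of models called higher in leaf. On the other side it stays above that of models called lower. Leaf replicate 1 listed 15320 models above 0 and leaf replicate 2 listed 19749, and the rhizophore libraries listed 18720 and 18593. Of the models called lower in leaf, 223 were at 0 in leaf replicate 1 and 55 in leaf replicate 2. Most called models had moderate levels. A mean of 10 to 100 CPM in the higher organ was found for 1459 (58.0%) of those higher in leaf and 1660 (75.1%) of those lower. A mean of 1000 CPM or more was found for 67 (2.67%) and 14 (0.633%).

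Leaf counts were concentrated in few models, and the 10 most counted took a small share of rhizophore counts. The 10 most counted leaf models took 31.8% and 31.5% of the counts in the leaf libraries, 31.8% and 32.0% in the shoot libraries, 7.05% and 3.49% in those of root, and 0.417% and 0.353% in those of rhizophore. In all 10 both leaf libraries were above both rhizophore libraries, and 9 were called. The 100 most counted leaf models took 49.2% and 49.0% of leaf counts and 13.5% and 7.23% of rhizophore counts. Of these 100, 58 were called higher in leaf, 3 lower and 39 not, and in 9 both leaf libraries were below both of rhizophore. The 10 most counted rhizophore models took 9.57% of the counts of rhizophore replicate 1 and 3.87% of those of the library labelled rhizophore replicate 2. In the leaf libraries they took 1.48% and 1.41%, and 6 of them were called lower in leaf. Ranked within each library, the 10 most counted models took 31.8% and 31.6% of leaf counts and 9.86% and 4.82% of rhizophore counts, and the 95% Wilson intervals ran from 31.781% to 31.89% for leaf replicate 1 and from 9.8383% to 9.8751% for rhizophore replicate 1. Such intervals treat each read as a separate draw and hold no spread between samples. Since several reads can stem from 1 molecule, they may be too narrow even for counting error. With 2 libraries an organ an exact two-sided permutation test cannot give a p below 0.333.

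**Figure D2:**
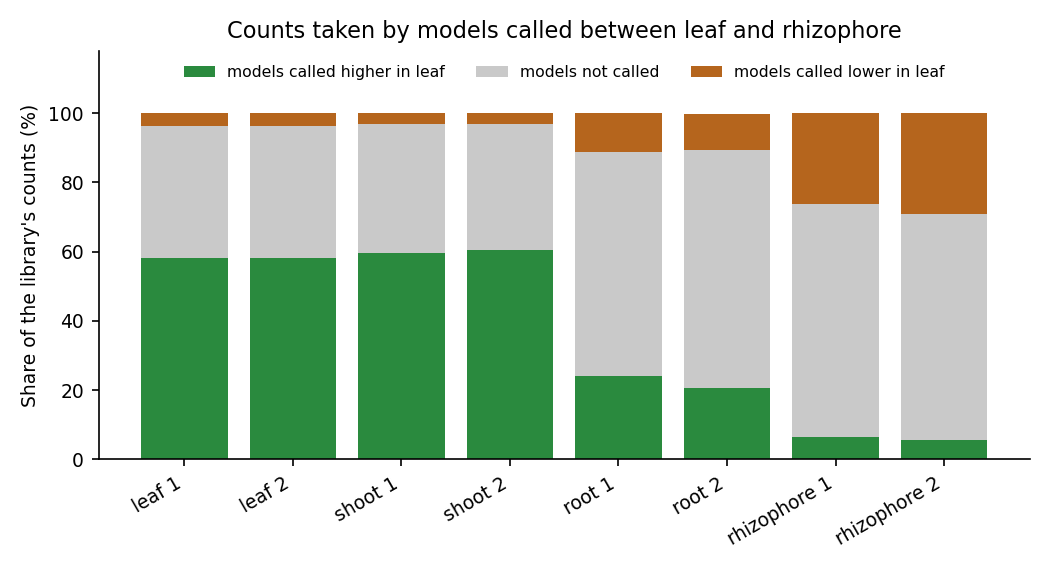
Share of each library's counts (y axis, percent) taken by models called higher in leaf than in rhizophore (green), called lower (brown) or not called (grey), for the 8 libraries on the x axis. Models called higher in leaf hold 58.0% to 60.5% of counts in leaf and shoot, 24.1% and 20.6% in the root libraries, and 6.56% and 5.63% in those of rhizophore.

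The models called higher in leaf were also well counted in the shoot tip, which bears young microphylls. They held 59.8% and 60.5% of shoot counts and 24.1% and 20.6% of root counts. Their median levels were 34.5 and 39.7 CPM in leaf, 39.5 and 40.1 CPM in shoot, 18.8 and 17.7 CPM in root, and 6.67 and 4.28 CPM in rhizophore. The shoot tip had the highest mean of the 4 organs for 1361 (54.1%) of them, the leaf itself for 642 (25.5%) and the root for 511 (20.3%). The rhizophore could not be highest in a set chosen for leaf above rhizophore, so these shares are a description. Over all models tested the shoot tip was highest for 17.0%, the leaf for 8.98%, the root for 45.1% and the rhizophore for 28.9%.

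For 2031 of the 2210 models called lower in leaf (91.9%) the rhizophore had the highest mean of the 4 organs. They were chosen for rhizophore above leaf, so the leaf could not be highest, and this share too is a description. The root was highest for 175 (7.92%) and the shoot tip for 4 (0.181%). Over all models tested the rhizophore was highest for 28.9%, the root for 45.1% and the shoot tip for 17.0%. The median levels of the models called lower were 38.5 and 52.6 CPM in the rhizophore libraries, 18.1 and 16.1 CPM in root, 11.4 and 11.3 CPM in shoot, and 9.05 and 11.4 CPM in leaf. They held 11.3% and 10.5% of root counts and 3.29% and 3.26% of shoot counts. By these medians the root stood between the rhizophore and both shoot and leaf in each set. Each set was chosen for a difference between leaf and rhizophore, which favours a place between them for another organ, so this order is a description.

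Leading models were taken from called models with no overlap between the organs and 50 CPM or more on average in the higher one. They were those of largest absolute fitted log2 fold change, which for a model at 0 depends on a prior count. By ratios of means, 137842.v1 and 137689.v1 below stood at 10729-fold and 6174-fold, above the bounds given for the 2 models named first. Among models higher in leaf the first by fitted value was 137813.v1. It stood at 1827 and 1904 CPM in the leaf libraries and was listed at 0 in both rhizophore libraries. In shoot it stood at 2421 and 2563 CPM, and in root at 97.5 and 77.2 CPM. The leaf libraries were far above both rhizophore libraries, with no overlap, and the shoot was higher still. The leaf mean of 1865 ± 53.9 CPM (SD, n = 2) was at least 5141-fold higher than 5 counts per rhizophore library (edgeR adjusted p = 1.4e-05). Against rhizophore replicate 1 alone the bound was 4643-fold (edgeR adjusted p = 4.9e-97) and against the other library alone 5760-fold (edgeR adjusted p = 5.8e-108). With 1 rhizophore library that library is assumed to vary like the other organs, so these much smaller p-values rest on the spread of leaf, root and shoot.

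The next model, 137749.v1, had the same profile. Its levels were 1133 and 1064 CPM in leaf, 0 in both rhizophore libraries, 1842 and 1885 CPM in shoot, and 38.3 and 45.6 CPM in root. Leaf and rhizophore did not overlap, and the leaf libraries agreed closely with each other. The leaf mean of 1098 ± 48.4 CPM (SD, n = 2) was at least 3027-fold higher than the floor of 5 counts per rhizophore library (edgeR adjusted p = 1.4e-05). This bound was 2734-fold against rhizophore replicate 1 alone and 3391-fold against the other alone. The same pair of models led the comparison with rhizophore replicate 1 alone. In the authors' deposited table the Leaf, Shoot, Root and Rhizophore averages were 1956, 2613, 45.8 and 0 for 137813.v1 and 1151, 1954, 22.0 and 0.283 for 137749.v1.

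Against the library labelled rhizophore replicate 2 alone, the leading leaf models were far more counted. The model 137689.v1 stood at 68276 and 79077 CPM in leaf, 84261 and 86281 CPM in shoot, 723 and 492 CPM in root, 23.9 CPM in rhizophore replicate 1 and 0 in the other library. All leaf and shoot libraries were above both root libraries, which were above both rhizophore libraries. The leaf mean was 3087-fold above rhizophore replicate 1 (edgeR adjusted p = 8.5e-37) and at least 227480-fold above the other library (edgeR adjusted p = 7.7e-73). With both rhizophore libraries, its log2 fold change was 12.60 (SE 2.66, edgeR adjusted p = 0.0190).

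The model 137842.v1 stood at 9853 and 10839 CPM in leaf, 11474 and 12809 CPM in shoot, 609 and 410.2 CPM in root, 1.93 CPM in rhizophore replicate 1 and 0 in the other library. The order of the organs was the same as for 137689.v1. The leaf mean was 5365-fold above rhizophore replicate 1 and at least 31943-fold above the other library, and with both the log2 fold change was 13.42 (SE 1.71, edgeR adjusted p = 0.00186). In these 4 leading leaf models both shoot libraries were above both leaf libraries, and the root libraries lay between leaf and rhizophore. The models were chosen as extremes of leaf over rhizophore, so the place of the root is a description.

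**Figure D3:**
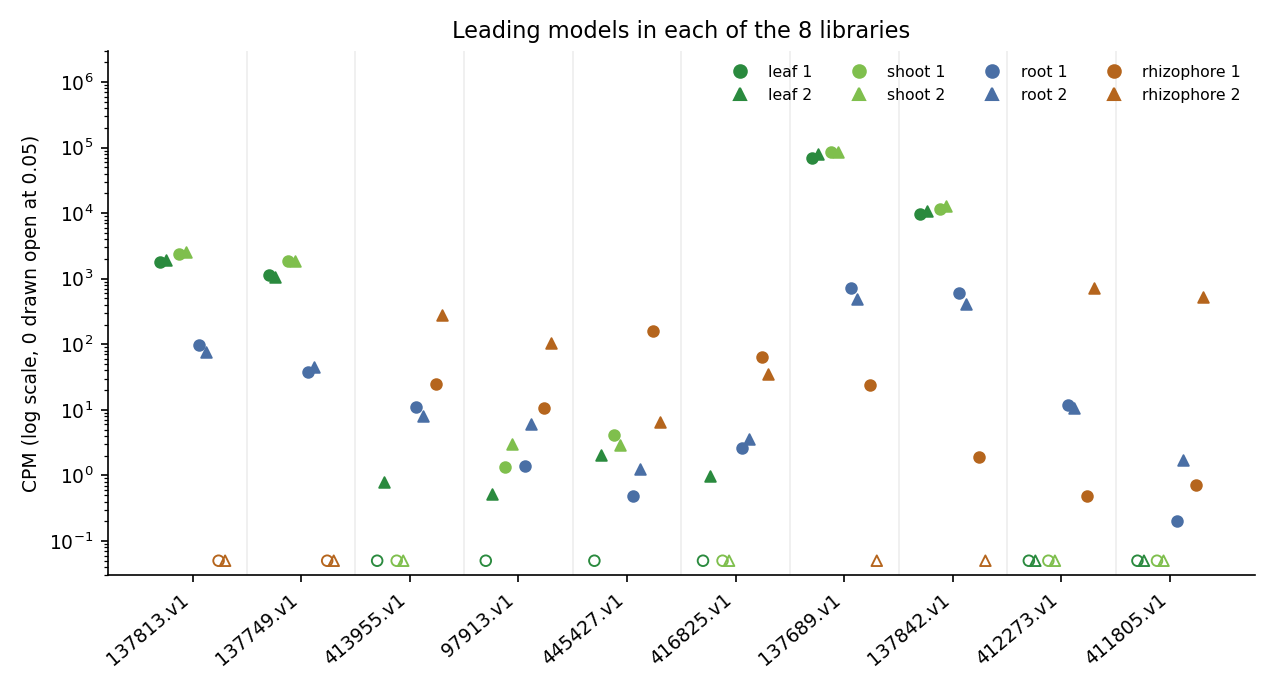
Level of each leading model (x axis) in the 8 libraries (y axis, CPM on a log scale), circles for replicate 1 and triangles for replicate 2, coloured by organ, with values of 0 drawn open at 0.05. Leaf models sit above 1000 CPM in leaf and shoot, whereas for 413955.v1, 97913.v1, 412273.v1 and 411805.v1 the triangle of the library labelled rhizophore replicate 2 lies far above the circle of replicate 1.

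The leading models lower in leaf had most of their signal in 1 rhizophore library. For 413955.v1, the level in rhizophore replicate 1 was 24.6 CPM and that in the library labelled replicate 2 was 277 CPM. Its leaf levels were 0 and 0.789 CPM, its shoot levels 0 and 0, and its root levels 10.9 and 8.18 CPM. Both rhizophore libraries were above all others, but they were far from each other. The log2 fold change of leaf minus rhizophore was -7.99 (SE 1.68, edgeR adjusted p = 0.0330), and it was -5.47 against rhizophore replicate 1 alone (SE 0.80, edgeR adjusted p = 1.7e-10) and -8.93 against the other library alone (SE 0.42, edgeR adjusted p = 1.5e-95). The call ended without leaf replicate 1 (edgeR adjusted p = 0.132) and without leaf replicate 2 (0.112), and with the 4 leaf and rhizophore libraries alone, without (0.0712) and with a replicate block (0.0832). It also ended where the library labelled rhizophore replicate 2 was taken for root (log2 fold change -5.43, edgeR adjusted p = 0.365).

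The model 97913.v1 stood at 10.6 and 104 CPM in the rhizophore libraries, 0 and 0.526 CPM in leaf, 1.35 and 2.99 CPM in shoot, and 1.39 and 6.11 CPM in root. Again the rhizophore libraries were above all others and about as far from each other as for 413955.v1. The log2 fold change was -7.15 (SE 1.66, edgeR adjusted p = 0.0286), with -4.89 (SE 1.34) against rhizophore replicate 1 alone and -8.09 (SE 0.56) against the other alone. The call ended without shoot replicate 1 or 2 (edgeR adjusted p = 0.0642 and 0.0636), without leaf replicate 1 or 2 (0.137 and 0.123), with the 4 libraries alone without (0.0754) and with the block (0.0832), and with limma-voom (0.0650). With the library labelled rhizophore replicate 2 taken for root it ended too, at a log2 fold change of -4.76 (edgeR adjusted p = 0.412). The Root averages of 413955.v1 and 97913.v1 in the authors' deposited table, 151 and 57.5, exceeded their Rhizophore averages, 25.6 and 11.5, and their Leaf averages were 0.506 and 0.354.

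Against rhizophore replicate 1 alone, other models led. The model 445427.v1 stood at 162 CPM in that library and at 6.48 CPM in the other. It was at 0 and 2.02 CPM in leaf, 4.15 and 2.89 CPM in shoot, and 0.482 and 1.26 CPM in root. Only rhizophore replicate 1 was high among the 8 libraries. Its log2 fold change was -6.86 against that library alone (SE 0.42, edgeR adjusted p = 4.7e-56), -2.57 against the other alone (SE 1.50, edgeR adjusted p = 0.174) and -5.95 with both (SE 1.85, edgeR adjusted p = 0.0808), so it was not among the models called with both.

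The model 416825.v1 was high in both rhizophore libraries, at 63.2 and 35.4 CPM. It stood at 0 and 0.964 CPM in leaf, 0 in both shoot libraries, and 2.64 and 3.59 CPM in root. Here the rhizophore libraries were alike and clear of all others. The log2 fold change was -6.14 with both (SE 0.80, edgeR adjusted p = 0.00141), -6.53 against rhizophore replicate 1 alone (SE 0.63) and -5.78 against the other alone (SE 0.82, edgeR adjusted p = 1.5e-11). Its rhizophore mean with both libraries, 49.3 ± 19.6 CPM (SD, n = 2), fell just under the 50 CPM asked of a leading model.

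Against the library labelled rhizophore replicate 2 alone, the leading models were nearly limited to that library. The model 412273.v1 stood at 711 CPM there, and its level in rhizophore replicate 1 was 0.482 CPM. It was at 0 in both leaf and both shoot libraries and at 12.1 and 10.6 CPM in root. The root libraries were thus above rhizophore replicate 1 and far below the other. It was at least 548-fold higher in that library than 5 counts per leaf library (edgeR adjusted p = 1.9e-157), but with both rhizophore libraries the edgeR adjusted p was 0.201.

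The model 411805.v1 stood at 530.2 CPM in the library labelled rhizophore replicate 2, 0.723 CPM in rhizophore replicate 1, 0 in both leaf and both shoot libraries, and 0.203 and 1.73 CPM in root. It was at least 409-fold higher in that library than 5 counts per leaf library (edgeR adjusted p = 6.9e-143), but the call ended without leaf replicate 1 (edgeR adjusted p = 0.230), leaf replicate 2 (0.300), shoot replicate 1 (0.110) or shoot replicate 2 (0.111). With both rhizophore libraries the edgeR adjusted p was 0.217. In the authors' deposited table the Root averages of these models were 380 and 287 and the Rhizophore averages 0.588 and 0.629.

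The spread between the rhizophore libraries fell unevenly on the 2 directions. Of the models called lower in leaf, 132 (5.97%) were at least 4-fold higher in the library labelled rhizophore replicate 2 than in replicate 1, and 14 (0.633%) the other way round. For models called higher in leaf, 162 (6.44%) were at least 4-fold higher in rhizophore replicate 1 and 8 (0.318%) in the other. Over all models tested, 7.56% were at least 4-fold higher in rhizophore replicate 1 and 6.16% in the other. The larger share in each direction was thus not above that over all tested, and the smaller share was far below it. The test that called these models favours agreement within an organ, so the shares that follow are a description. Within 2-fold of each other were 70.2% and 67.3% of the models called higher and lower in leaf, against 64.5% of all tested. The leaf libraries were within 2-fold for 95.6%, 87.2% and 66.9% respectively. A library at 0 was set to its own 5 counts, 2.15 and 0.438 CPM in the leaf libraries. A model at 0 in both thus counted as apart, which held for 3892 of all tested and 55 of those called lower. In rhizophore, with 0.402 and 0.324 CPM, such a model counted as within 2-fold. The leaf share over all tested is thus too low and not comparable with that of rhizophore.

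Among large differences, most on the leaf side and a minority on the rhizophore side were called. At least 16-fold higher in leaf by the means, with 10 CPM or more in leaf, were 403 models, of which 386 (95.8%) were called. At least 16-fold lower, with 10 CPM or more in rhizophore, were 199 models, of which 82 (41.2%) were called. Of the 117 not called, 113 had rhizophore libraries at least 4-fold apart, with the library labelled rhizophore replicate 2 higher in 108 and replicate 1 higher in 5. Of the 17 models on the leaf side that were not called, 16 had rhizophore replicate 1 at least 4-fold higher. The difference between these shares was not tested. Means under 5 counts per library were set to that floor, 1.30 CPM in leaf and 0.363 CPM in rhizophore. A 16-fold ratio thus needed more than 10 CPM on the rhizophore side, so the limits of the 2 sets were unequal.

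**Figure D4:**
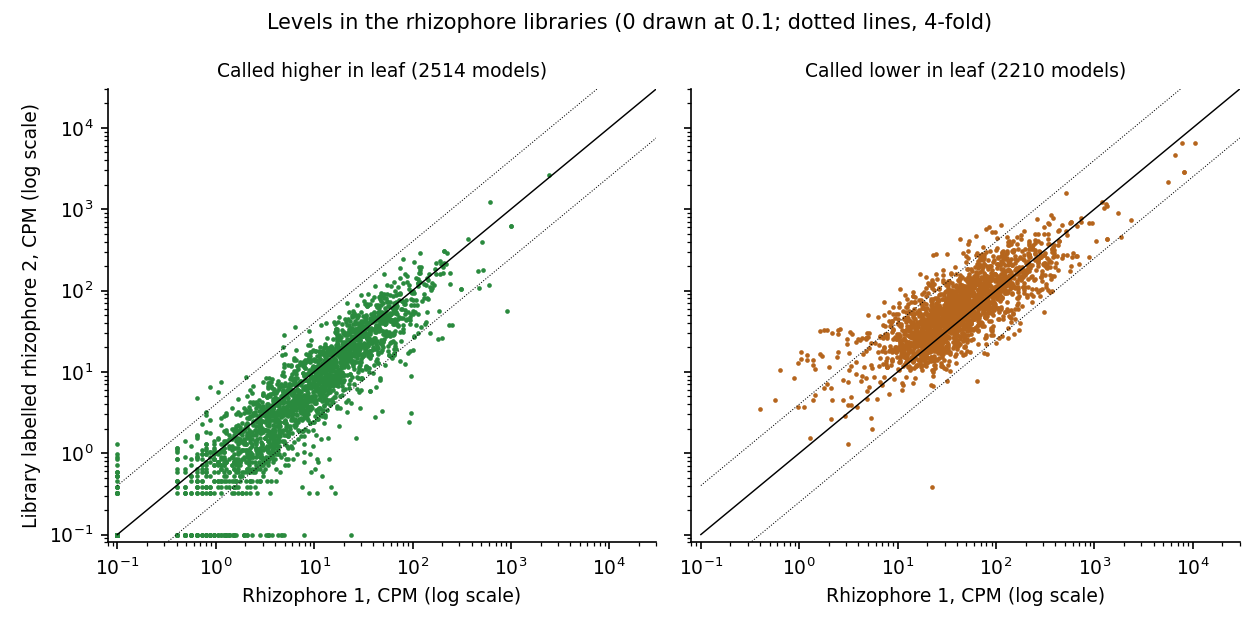
Level in rhizophore replicate 1 (x axis, CPM) and in the library labelled rhizophore replicate 2 (y axis, CPM), both on log scales with 0 drawn at 0.1, for models called higher (left) and lower (right) in leaf. The solid line marks equal levels and the dotted lines 4-fold, outside which lie 162 and 8 of the 2514 models on the left and 14 and 132 of the 2210 on the right, below and above.

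In levels alone, both leaf libraries were above both rhizophore libraries in 5590 models (23.6% of those tested) and below both in 6633 (28.0%). All 2210 models called lower and 2476 of the 2514 called higher were among these. Leaf replicate 1, the library of lowest depth, was listed at 0 in 8345 of the tested models. Such a model cannot have both leaf libraries above rhizophore, so the directions were not on equal terms. The rhizophore libraries lay on opposite sides of both leaf libraries in 2 further sets. In 1311 models (5.54%) rhizophore replicate 1 was above and the other below, and in 1002 (4.23%) it was the reverse.

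Against each rhizophore library alone the numbers were larger and, in the fit reported, the balance turned. Against rhizophore replicate 1, 7361 models differed (29.8% of 24709 tested), 3484 higher in leaf (14.1%) and 3877 lower (15.7%). Against the library labelled rhizophore replicate 2, 9802 differed (39.7% of 24708), 4492 higher (18.2%) and 5310 lower (21.5%). Both comparisons use the same leaf libraries. The turn depended on the fit. With DESeq2's test, with only models at 10 CPM or more, or without leaf replicate 1, more models were higher in leaf against either library. Of the models called with both rhizophore libraries, 2398 of 2514 higher in leaf and 2033 of 2210 lower were also called against replicate 1 alone, and 2465 and 2176 against the other library alone.

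The count also depended on which other libraries shared the fit. It was 137 (128 higher, 9 lower) with the 4 leaf and rhizophore libraries alone, and 0 where the library labelled rhizophore replicate 2 was taken for root, and there edgeR's test gave 3438 models an unadjusted p under 0.05. It was 1934 without leaf replicate 1 (1503 higher, 431 lower) and 2340 without leaf replicate 2 (1305 higher, 1035 lower).

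**Figure D5:**
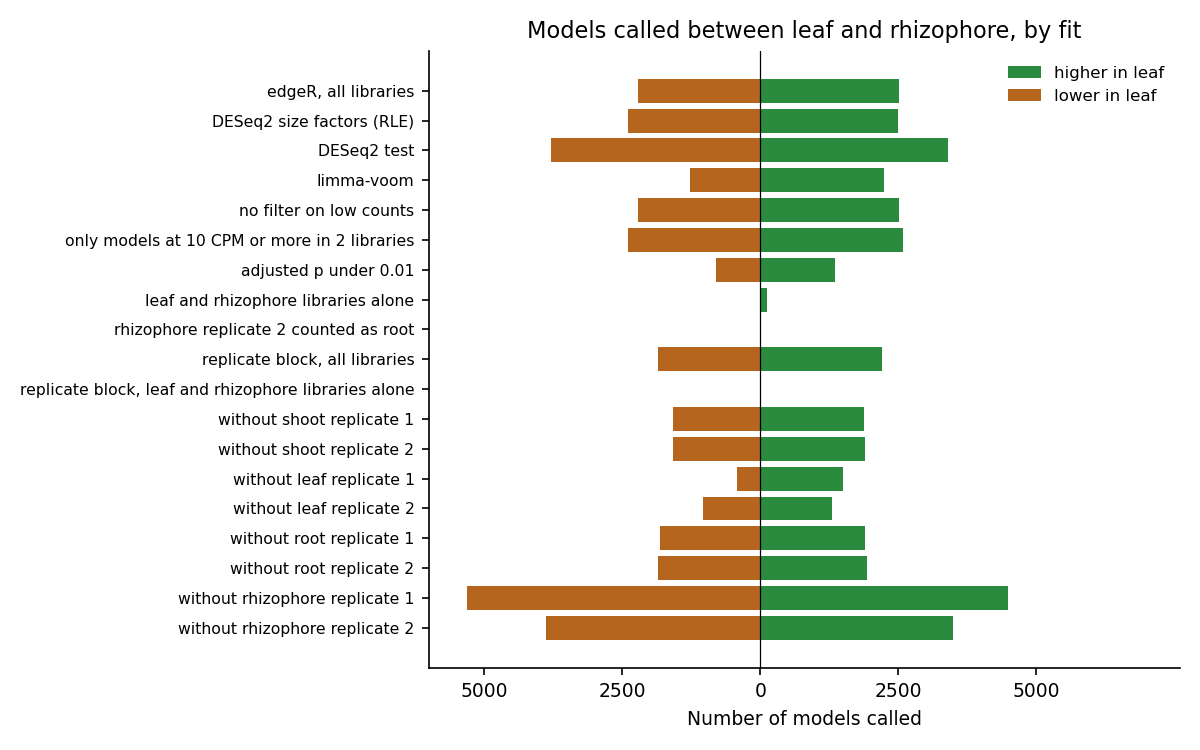
Number of models called (x axis) higher in leaf (green, to the right) and lower in leaf (brown, to the left) for each fit on the y axis. The fit on all libraries gave 2514 and 2210, the fits against 1 rhizophore library gave the longest bars, and the shortest came with rhizophore replicate 2 counted as root and with the 4 leaf and rhizophore libraries alone, with or without a replicate block.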

How the data were processed

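Per the labels' protocols, libraries were made from total RNA using the kit Nugen Ovation Amp V2 DR, and sequenced as 50 bp single-end reads. One deposited table holds raw counts of reads per gene model and library, per the file headers. The other holds a signal that the authors made by normalizing counts and averaging them per organ. Bowtie2, a read aligner, and edgeR are named in the submitters' processing notes. Genome build, annotation, strand and treatment of multiply matching reads are not given in the sources used, so models with near-identical copies are uncertain. None of the named models stayed within 0.1 log2 of another model over all the libraries.

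The robust quasi-likelihood test of edgeR 4.0.16 (R 4.3.3) was run after TMM scaling on the 23662 of 25004 models that filterByExpr left, with Benjamini-Hochberg adjustment. The model had a mean for each organ and took in all 8 libraries, because 2 libraries an organ leave few degrees of freedom. Fits against 1 rhizophore library left out the other. Standard errors come from the fold change and its F statistic, and distances use log2 CPM with a prior count of 2. The weights of the organ averages are a non-negative fit of the 8 columns (scipy 1.17.1). The procedure was tested on simulated data. Chi-square per degree of freedom between libraries of an organ was 4.52 for leaf and 253 for rhizophore, more than sampling noise gives. Leading models were the 2 of largest absolute fitted log2 fold change per direction and fit. They came from models with an adjusted p under 0.05, no overlap between organs and 50 CPM or more on average in the higher one. The comparison, models and lists were chosen with earlier results of these data known. Lists of photosynthesis, cell wall, hormone and other genes were drawn up but could not be matched to the models, so they gave no result. Alternatives were other scalings, filters and tests (DESeq2 1.42.0, limma-voom 3.58.1), fewer libraries, a replicate block and another label for 1 library.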

Additional observations from a re-analysis of the deposited data

How the results depend on the processing

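The count of 4724 models differing between leaf and rhizophore was within 1.5 times of itself with DESeq2's size factors, limma-voom, no filter, only models at 10 CPM or more, and without either shoot or root library. It was 7192 with DESeq2's test (3404 higher in leaf, 3788 lower), 2160 at an adjusted p under 0.01 and 137 with the 4 libraries alone, and it ranged from 1934 to 9802 with 1 library left out. It was 0 when the library labelled rhizophore replicate 2 was taken for a root library. The share higher in leaf was 53.2%, and 63.8% with limma-voom (2247 against 1273), 47.3% with DESeq2's test and 51.1% with its size factors. Adding the replicate number as a block gave 4051 models with all 8 libraries, and 0 with the 4 alone in edgeR's test, where 4484 had an unadjusted p under 0.05. Correlations of the replicate differences between organs were -0.0147 to 0.0706, so the samples share only a number and no pairing is shown.

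Against rhizophore replicate 1 alone the count of 7361 was 3204 with limma-voom and 5548 to 8619 with another library left out. Against the library labelled rhizophore replicate 2 alone the count of 9802 was 6347 with limma-voom and 7930 to 10353 with another left out. No leading model changed direction in any fit. With that library taken for root, the calls of 137813.v1 and 137749.v1 ended (edgeR adjusted p = 0.247 and 0.240) at log2 fold changes of 18.08 and 17.32, as in the fit reported. They also ended with the block on 4 libraries (0.0832 each), at 17.25 and 16.48. The cause was not tested. The 100 most counted models took 49.2% and 49.0% of leaf counts and 25.0% and 17.1% of rhizophore counts. Without models under 10 CPM the leaf libraries lay 0.612 apart in place of 1.22 (root mean square, log2 CPM). Models at 10 CPM or more numbered 9167 and 9794 in leaf and 9988 and 9760 in rhizophore. As for depth, leaf replicate 1 lists nothing under 2.15 CPM.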

Other observations

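Models numbered 137000 to 137999 were often higher in leaf. Blocks were looked at after members of this one were seen to lead the leaf side. The block was taken because its share called higher in leaf was the highest, so its rank was fixed by the choice and is a description. Of 77 tested, 51 (66.2%) were called higher in leaf and 1 lower, against 10.3% called higher among all tested models with numeric names. Among the 219 blocks of 1000 numbers with 20 or more tested models, the next highest share was 32.3%. The 82 models of the block in the table held 17.2% and 16.1% of leaf counts, 16.2% and 16.8% of shoot counts, 2.77% and 2.32% of root counts, and 0.309% and 0.0440% of rhizophore counts. Their median levels were 366 and 382 CPM in leaf, 505 and 512 CPM in shoot, 73.8 and 74.7 CPM in root, and 1.53 and 0 CPM in rhizophore. Against rhizophore replicate 1 alone 53 were called higher in leaf, and against the library labelled rhizophore replicate 2 alone 55. The sources used here do not say what the numbers stand for.

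Of the 2717 tested models with names starting in Smoe, 13.2% were called higher and 13.0% lower in leaf, against 10.3% and 8.87% of 20945 with numeric names. In 42 models rhizophore replicate 1 was at least 4-fold above both leaf libraries and the library labelled rhizophore replicate 2 at least 4-fold below both, and in 19 it was the reverse. The authors' deposited Rhizophore average was above 0 for 850 of 6284 models listed at 0 in rhizophore replicate 1, reaching 0.624, whereas their Leaf average was above 0 for 0 of 5101 models listed at 0 in both leaf libraries.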
